A study of Mus musculus with 6 samples.

Results

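The mouse genes Prm1, Prm2, Tnp1 and Tnp2 encode the small basic proteins that repackage the spermatid genome. They were taken as every transcript whose gene symbol, ignoring case, was 1 of these 4 names. The 4 genes had 5 transcripts among the 11517 annotated transcripts (6985 gene symbols) of the direct RNA-seq tables, and all 5 entered both the tail length test and the accumulation test. Direct RNA-seq passes native RNA through a nanopore, so that 1 read stands for 1 molecule and carries its own poly(A) tail, and read numbers were therefore not divided by transcript length.

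Germ cells of 2 types, both from adult C57BL/6J/B6 males with no genetic change or treatment, were compared. P/D spermatocytes are meiotic cells at the pachytene and diplotene stages, and round spermatids (RS) are the haploid cells that follow meiosis. The cells were sorted from testis suspensions by DNA content, red fluorescence and light scatter after Hoechst and PI staining. Each cell type had 3 samples, each a pool of mRNA from 3 mice, and the 3 barcoded samples of a cell type were sequenced as 1 library, so that library and cell type cannot be told apart. Per the methods both cell types were taken from the same 9 mice, and whether pools with the same replicate number hold the same mice was not stated. By the microscopy described in the methods, the P/D gate was much less pure than that of RS and held a large share of other cells, so values for P/D spermatocytes are those of this gate. Annotated reads numbered 241424 to 302908 a sample for P/D spermatocytes, and 314086 to 470663 for RS.

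In the haploid phase the histones of the spermatid are removed, first in favour of the transition proteins and then of the protamines, arginine-rich proteins that condense sperm DNA. Transcription ends as the nucleus compacts, so the mRNAs of these proteins are made in RS, kept untranslated in the cytoplasm, and translated days later in elongating spermatids. Protamine mRNA is a textbook case of stored mRNA, and shortening of its poly(A) tail at the time of translation has long been described. Prm1 and Prm2 encode the protamines that mouse sperm retain, and Tnp1 and Tnp2 encode the transition proteins.

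In the GRCm38 build and the GENCODE annotation, 3 of the 4 genes lie on the reverse strand within 8951 bases of chromosome 16. Prm1 spans chr16:10796326-10796886, Prm2 spans chr16:10791380-10792105 and Tnp2 spans chr16:10787936-10788660. Between Prm2 and Tnp2 lies Prm3, a gene related by name and position, at chr16:10790505-10790914. Tnp1 lies apart, on the reverse strand of chr1:73015074-73015909. The main transcript of each member has 2 exons. The lengths are 469 nt with 153 coding bases for Prm1, 621 nt with 321 for Prm2, 437 nt with 165 for Tnp1 and 554 nt with 351 for Tnp2. A second Prm1 transcript, Prm1-202, has 3 exons, starts upstream at position 10805839 and shares the 3′ end of the main one.

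The last 30 bases of each main transcript are shown because the measured tails are added there. They lie at chr16:10796326-10796355, chr16:10791380-10791409, chr1:73015074-73015103 and chr16:10787936-10787965, all read on the reverse strand and all in the 3′ UTR of the last exon, and the capitals mark the polyadenylation signal.
Prm1: cctgtcAATAAAtgttgaaaactcatccca
Prm2: gccacctgccaAATAAAgcttgacacgaga
Tnp1: ttgaaaacaAATAAAattgtgaaaaacaaa
Tnp2: catggATTAAAgcttgtaccctggaagact

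Prm1, Prm2 and Tnp1 carried the common signal AATAAA, which 53.1% of the 11344 annotated transcripts found in the annotation held in their last 30 bases. Tnp2 carried the variant ATTAAA, which 14.8% held. The signal began 24, 19, 21 and 25 bases before the end for Prm1, Prm2, Tnp1 and Tnp2. A search of the sense strand of the last 150 bases for CCATCA, a core of the recognition sequence of the Y-box proteins that package stored spermatid mRNA, found 1 match in Prm1 and 1 in Tnp2, and no match of these letters in Prm2 and Tnp1. Such a match was held by 4% of the annotated transcripts.

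The 150 bases before the RefSeq start of each gene are shown because the mRNAs of the 4 members rose together. They are from GRCm38.p6, on the reverse strand, at chr16:10796824-10796973, chr16:10792106-10792255, chr1:73015900-73016049 and chr16:10788656-10788805. Capitals mark every match, on either strand, to the TATA elements TATAA and TATATA, to the cAMP response element TGACGTCA, and to 1 of its 1-base variants, TGATGTCA. The GENCODE starts of Prm1, Tnp1 and Tnp2 lie upstream of the RefSeq starts, inside the sequences shown, and that of Prm2 is the RefSeq start.
Prm1: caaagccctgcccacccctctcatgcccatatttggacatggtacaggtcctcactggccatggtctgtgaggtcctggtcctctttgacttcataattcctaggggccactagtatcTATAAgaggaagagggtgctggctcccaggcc
Prm2: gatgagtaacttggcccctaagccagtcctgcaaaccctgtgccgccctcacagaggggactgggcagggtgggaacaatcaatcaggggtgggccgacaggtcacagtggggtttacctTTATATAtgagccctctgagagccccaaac
Tnp1: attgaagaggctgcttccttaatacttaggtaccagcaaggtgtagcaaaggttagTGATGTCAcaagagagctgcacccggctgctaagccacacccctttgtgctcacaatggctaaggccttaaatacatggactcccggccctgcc
Tnp2: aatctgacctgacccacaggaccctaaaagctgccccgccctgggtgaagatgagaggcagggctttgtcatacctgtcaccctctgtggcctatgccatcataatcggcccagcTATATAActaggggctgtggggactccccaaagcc

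A TATAA match lay at positions -32 to -28 from the start in Prm1 and -33 to -29 in Tnp2. In Tnp2 it overlapped a TATATA match, and in Prm2 a TATATA match at -29 to -24 overlapped TATAA on the other strand at -30 to -26. Among 32851 RefSeq promoters, 14.2% held TATAA and 2.97% TATATA in the same 150 bases on either strand. Tnp1 had neither and held TGATGTCA at -94 to -87, which 2.32% of promoters held. None of the 4 windows held TGACGTCA, which 1.36% held. Other 1-base variants of TGACGTCA were not searched for or marked, such as the TGACTTCA in the Prm1 window. Each match is a match of letters only.

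All 4 mRNAs were far more abundant in RS than in P/D spermatocytes, by nearly the same factor. In CPM, the number of reads scaled to a common total of annotated reads, Prm1 stood at 683, 591 and 588 in the P/D pools against 7039, 9223 and 8235 in the pools of RS. Prm2 had 422, 337 and 346 against 4015, 5152 and 4368. Tnp1, the transition protein gene outside the chromosome 16 cluster, had 356, 357 and 343 CPM in P/D spermatocytes. It had 3620, 5118 and 4844 in RS. Tnp2 had 393, 231 and 208 against 3706, 3941 and 4365. Every RS sample lay above every P/D sample for each member.

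**Figure D1:**
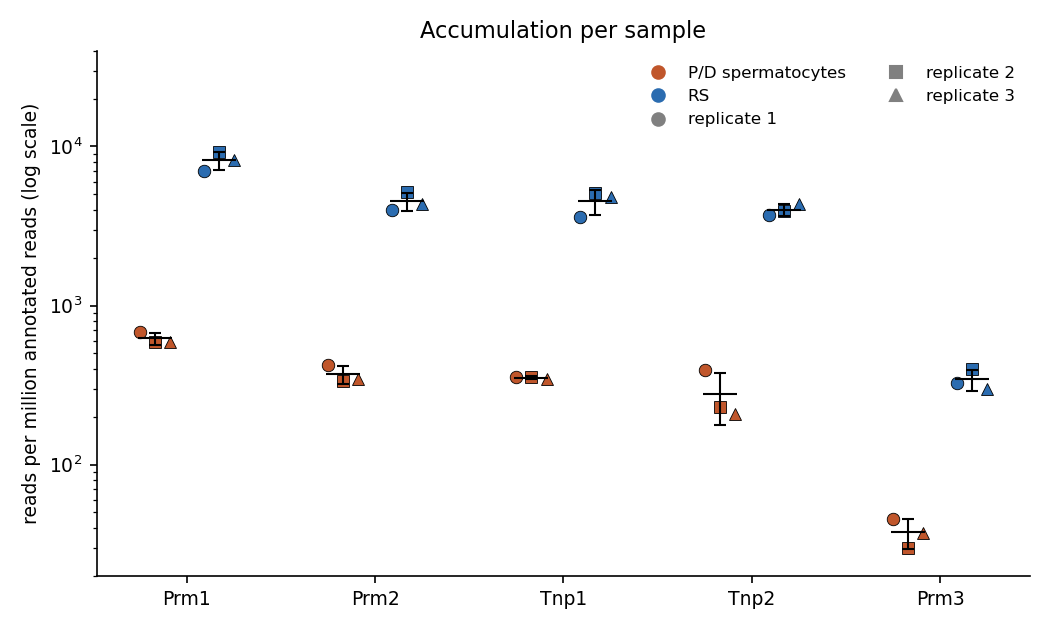
CPM (log scale) of the main transcripts of Prm1, Prm2, Tnp1 and Tnp2 and of Prm3, in each P/D spermatocyte and RS sample; symbols mark the replicate, and horizontal lines and bars give the mean and SD of 3 samples. The members sit between 208 and 683 in P/D spermatocytes and between 3620 and 9223 in RS.

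In the edgeR quasi-likelihood fit over 6005 transcripts, Prm1 rose by a log2 fold change of 3.77 (SE 0.11, adjusted p = 2.83e-29), or 13.6-fold. Prm2 rose by 3.67 (SE 0.12, adjusted p = 1.45e-27) and Tnp1 by 3.74 (SE 0.12, adjusted p = 4.15e-27). Tnp2 rose by 3.92 (SE 0.14, adjusted p = 1.78e-26), the largest of the 4. All 4 members were called higher in RS, where 32.6% of all tested transcripts were. The median log2 fold change over all tested transcripts was -0.03. Only 167 tested transcripts had a larger log2 fold change than Tnp2, and 276 had a larger one than Prm2. In these bulk samples a change in the number of cells that hold an mRNA and a change in mRNA per cell cannot be told apart.

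Prm1 was the most abundant annotated transcript by number of reads in RS replicates 2 and 3 and ranked 2 in replicate 1. Prm2 ranked 5 to 6, Tnp1 5 to 9 and Tnp2 6 to 7 among all transcripts in the RS pools. In P/D spermatocytes Prm1 ranked 232 to 295, and the other 3 ranked from 421 for Prm2 to 997 for Tnp2. Together the main transcripts of the 4 genes made up 0.186%, 0.152% and 0.149% of annotated reads in P/D replicates 1 to 3, against 1.84%, 2.34% and 2.18% in those of RS.

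The 4 mRNAs stood in similar proportions to each other in both cell types. Prm1 made up 38.5% ± 1.46 (SD, n = 3) of their reads in P/D spermatocytes, against 38.5% ± 0.815 in RS. Prm2 made up 22.8% ± 0.543 in P/D spermatocytes and 21.3% ± 1.09 in RS, the only member whose shares did not overlap between the cell types (exact permutation p = 0.1, the smallest that 3 against 3 samples can give). Tnp1 made up 21.9% ± 2.38 and 21.2% ± 1.36. Tnp2 made up 16.8% ± 3.84 and 19.0% ± 1.89, and its P/D share was spread the most, from 14.0% to 21.2%.

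Prm1-202 was a minor transcript, with 1, 6 and 1 reads in the P/D pools, and with 20, 69 and 47 in RS, against 2211, 4341 and 2907 for the main one. It rose by a log2 fold change of 3.58 (SE 0.44, adjusted p = 2.45e-09 in edgeR). Prm1-202 entered both tests only through its RS reads, where it is high, so its calls are no separate support. Prm3, which lies inside the cluster but whose product is not a DNA-packaging protamine, had 11, 9 and 10 reads in P/D spermatocytes against 103, 189 and 106 in RS. It rose by 3.26 (SE 0.23, adjusted p = 1.04e-15).

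The low level in P/D spermatocytes stood beside a similarly low level of other spermatid mRNAs. The P/D level of the members was 7.60% of the RS level for Prm1, 8.17% for Prm2, 7.77% for Tnp1 and 6.94% for Tnp2. The summed level of 10 elongating spermatid marker genes, all with reads, was 9.78% of that in RS, at 0.0544 to 0.103% of annotated reads in the P/D pools against 0.807 to 0.883% in RS. The summed level of 10 RS marker genes, all with reads, was 14.5% of that in RS, at 0.0581 to 0.0947% against 0.489 to 0.552%. The part that spermatids or their RNA in the P/D pools had in the members' P/D reads was not tested.

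The labelled cell types matched the sums of their marker lists in direction. The 10 P/D marker genes, which include the synaptonemal complex genes Sycp1 and Sycp3, summed to 0.210 to 0.226% of annotated reads in P/D spermatocytes against 0.0863 to 0.0939% in RS. Of their 15 tested transcripts 9 were lower and 2 higher in RS, beside 32.6% called higher over all tested transcripts. The share called lower in accumulation over all tested transcripts was not computed, for this list or those below. Not every gene matched. Cdc25c had 0, 2 and 2 reads in the P/D pools against 14, 13 and 14 in RS. Summed Ccna1 overlapped, at 236, 300 and 261 CPM against 280, 276 and 292. Of 5 Sertoli cell, 5 Leydig cell and 5 spermatogonial markers, 2, 1 and 1 had any read, with 0 to 7 reads a sample for each list. The 4 macrophage markers had none.

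The mean poly(A) tails of the 4 mRNAs differed by 3.77 to 17.7 nt between the P/D pools and RS, while the median transcript had far longer tails in RS. The cells of the P/D gate from which these member reads came cannot be told apart. In P/D spermatocytes the mean tail of Prm1 was 131, 128 and 124 nt in replicates 1 to 3, and in RS it was 138, 133 and 142 nt. Prm2 had the longest tails of the 4, with 141, 134 and 136 nt in P/D spermatocytes against 156, 152 and 157 nt in RS. For these protamine mRNAs every RS sample lay above every P/D sample.

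The tails of the transition protein mRNAs overlapped between the cell types. The mean tail of Tnp1 was 114, 122 and 131 nt in P/D spermatocytes against 129, 121 and 129 nt in RS. That of Tnp2 was 132, 133 and 132 nt and 139, 132 and 138 nt. Tnp1 was the member with the widest spread among P/D pools, and RS replicate 2, the sample with most reads, had the lowest mean tail of the RS pools for all 4 members. In the P/D pools these means rested on 56 to 179 reads a member, and in RS on 1137 to 4341.

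**Figure D2:**
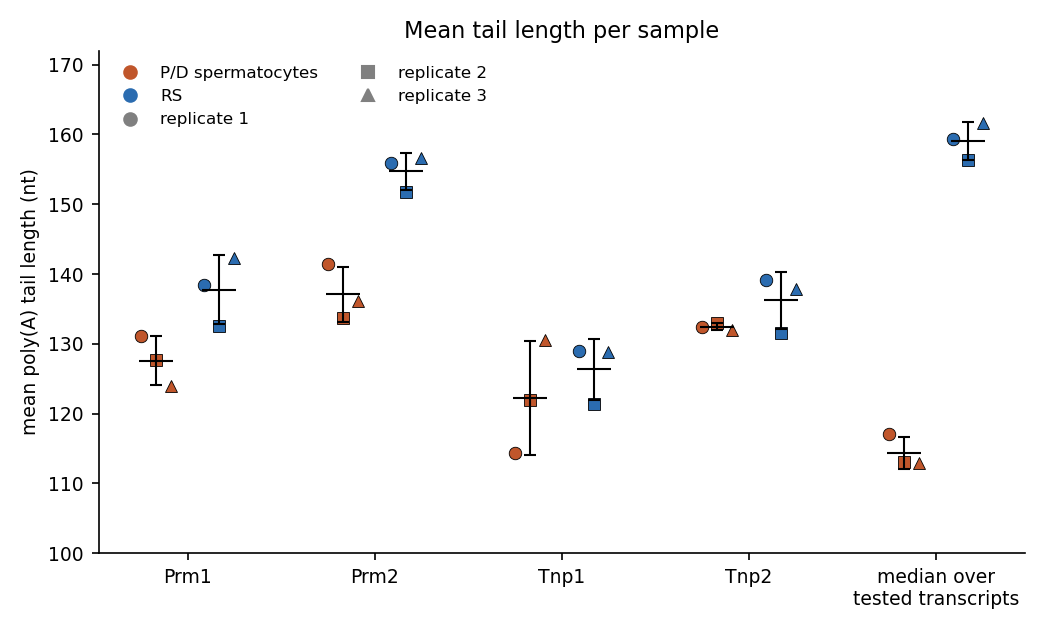
Mean poly(A) tail length in nt per sample (axis from 100 nt) for the main transcripts of the 4 genes and for the median over the 6990 tested transcripts; symbols mark the replicate, and horizontal lines and bars give the mean and SD of 3 samples. The members span 114 to 141 nt in P/D spermatocytes against 121 to 157 nt in RS, while the median transcript moved from 114 to 159 nt.

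In the limma fit over 6990 transcripts, only Prm2 among the 4 main transcripts was called, with tails longer in RS by 17.7 nt (SE 5.53, adjusted p = 0.035). The difference was 10.2 nt (SE 5.80, adjusted p = 0.186) for Prm1, 4.14 nt (SE 6.64, adjusted p = 0.628) for Tnp1 and 3.77 nt (SE 5.41, adjusted p = 0.585) for Tnp2. The Tnp1 difference was 0.16 nt without P/D replicate 1 and 8.28 nt without P/D replicate 3, and the Tnp2 difference was 2.29 nt without RS replicate 1 and 6.096 nt without RS replicate 2, with neither called. Over all tested transcripts the median difference was 37.4 nt, and 54.2% were called longer in RS. Groups that did not overlap, with RS above P/D, were found for 2 of the 4 members and for 63.6% of the 6464 transcripts that had reads in each of the 6 samples. The Prm2 call did not survive leaving out P/D replicate 2 or 3 or any 1 of the RS replicates (adjusted p = 0.0595 to 0.0987 in the limma fits), with differences of 15.95 to 19.2 nt, nor the replicate number as a block (adjusted p = 0.0893 in limma). Prm1 was called when the fit was limited to transcripts with 50 or more reads in each sample (adjusted p = 0.0184 in limma).

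Prm1-202 tails were called longer in RS by 29.2 nt (SE 10.1, adjusted p = 0.0484 in limma). Its P/D means rested on 1, 6 and 1 reads, however, and it met the read minimum of this test only in RS. The mean tail of Prm3 went from 115 ± 3.98 nt (SD, n = 3) to 133 ± 6.73 nt, a difference of 17.6 nt (SE 6.24, adjusted p = 0.0526 in limma) on 9 to 11 reads in each P/D sample.

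Set against the other transcripts of the same sample, the members stood on opposite sides of the median in the 2 cell types. The median transcript, meaning the median of the mean tails of the 6990 tested transcripts, was 117, 113 and 113 nt in the P/D pools against 159, 156 and 162 nt in the RS pools. In P/D spermatocytes Prm1 lay 13.2 ± 1.95 nt (SD, n = 3) above it, Prm2 22.7 ± 1.92 nt, Tnp1 7.85 ± 10.2 nt and Tnp2 18.1 ± 2.45 nt. Of the 12 member values in these samples, only that of Tnp1 in replicate 1 lay below the median transcript, by 2.79 nt. In RS every value lay below it. The differences were -21.3 ± 2.26 nt for Prm1, -4.32 ± 0.781 nt for Prm2, -32.7 ± 2.32 nt for Tnp1 and -22.8 ± 2.38 nt for Tnp2.

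The members therefore stood at 59.0 to 74.2% of the ranked transcripts in P/D spermatocytes, Tnp1 the lowest and Prm2 the highest. In RS 14.0% of transcripts had shorter mean tails than Tnp1, 21.2% than Tnp2, 22.7% than Prm1 and 42.9% than Prm2. The change relative to the median transcript was -34.5 nt for Prm1, -27.0 nt for Prm2, -40.6 nt for Tnp1 and -40.9 nt for Tnp2 (exact permutation p = 0.1 for each, the smallest that 3 against 3 samples can give). In a limma fit on tail lengths minus the median transcript of the sample, all 4 were called lower in RS, with adjusted p = 0.01 for Prm1, 0.0152 for Prm2, 0.0126 for Tnp1 and 0.00786 for Tnp2. In that fit 19.8% of all tested transcripts were called lower in RS, and the median relative difference was -7.31 nt. With the replicate number as a block none of the 4 calls was kept, at adjusted p = 0.0527 for Prm1, 0.0644 for Prm2, 0.0534 for Tnp1 and 0.0506 for Tnp2 in limma, and 354 transcripts were called lower in place of 1386. Without RS replicate 1 the adjusted p of Prm2 was 0.0528 in the limma fit with no block.

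**Figure D3:**
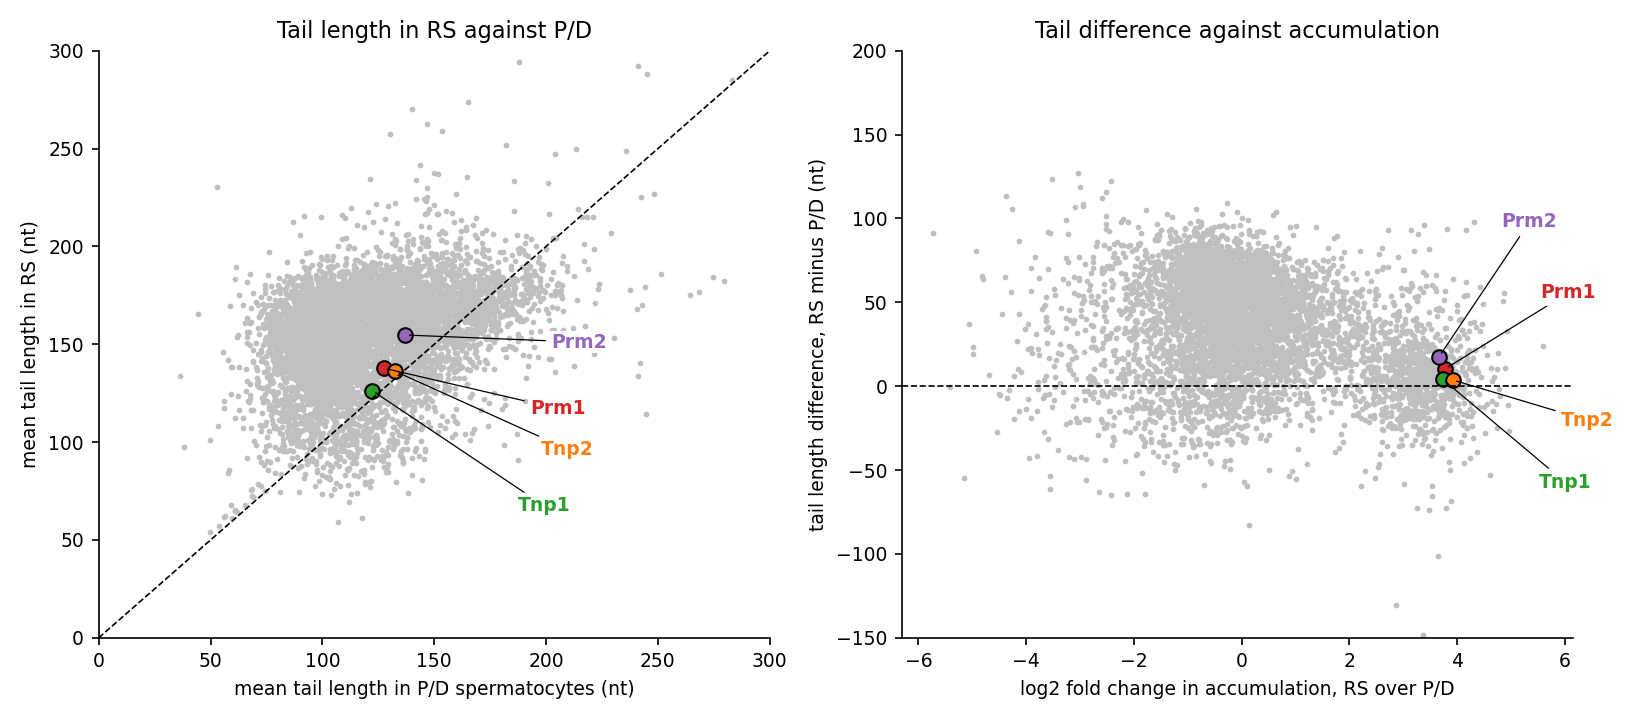
Left, mean tail length in nt in RS against P/D spermatocytes for the tested transcripts (grey; 2 lie outside the axes) with the 4 members marked and a dashed line of equal tails. Right, tail length difference in nt against the log2 fold change in accumulation for the 5916 transcripts in both tests; the members lie at log2 fold changes of 3.67 to 3.92 and differences of 3.77 to 17.7 nt.

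Small tail differences were common among the transcripts that rose as the members did. Of the 5916 transcripts in both tests, 648 had a log2 fold change of at least 3, the members among them. Their median tail difference was 5.33 nt, with median tails of 159 nt in P/D spermatocytes against 165 nt in RS, and 7.87% were called longer. Among the 3370 transcripts with log2 fold changes from -1 to 1 the median difference was 47.2 nt, with median tails of 108 nt and 159 nt, and 73.5% were called longer. The members shared the small difference of the first group but had shorter tails than its median in both cell types. A transcript could meet the read minimum of the tail test through its RS reads alone. The P/D means of transcripts that rose strongly can therefore rest on few reads, which makes a given difference harder to call. The shares called longer in these groups are thus not like for like, and the part that P/D read numbers had in them was not tested. These groups are a description of the same 6 samples.

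The read-level distributions showed where the protamine tails differed. In both cell types most reads of each member formed a single broad peak, with the most common 10-nt bin between 140 and 160 nt. In P/D spermatocytes the bin with most reads was 150 to 160 nt for Prm1 and 140 to 150 nt for Prm2, Tnp1 and Tnp2. In RS it was 140 to 150 nt for Prm1 and Tnp1, and 150 to 160 nt for Prm2 and Tnp2. Over all annotated reads the most common bin was 50 to 60 nt in P/D spermatocytes against 160 to 170 nt in RS.

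**Figure D4:**
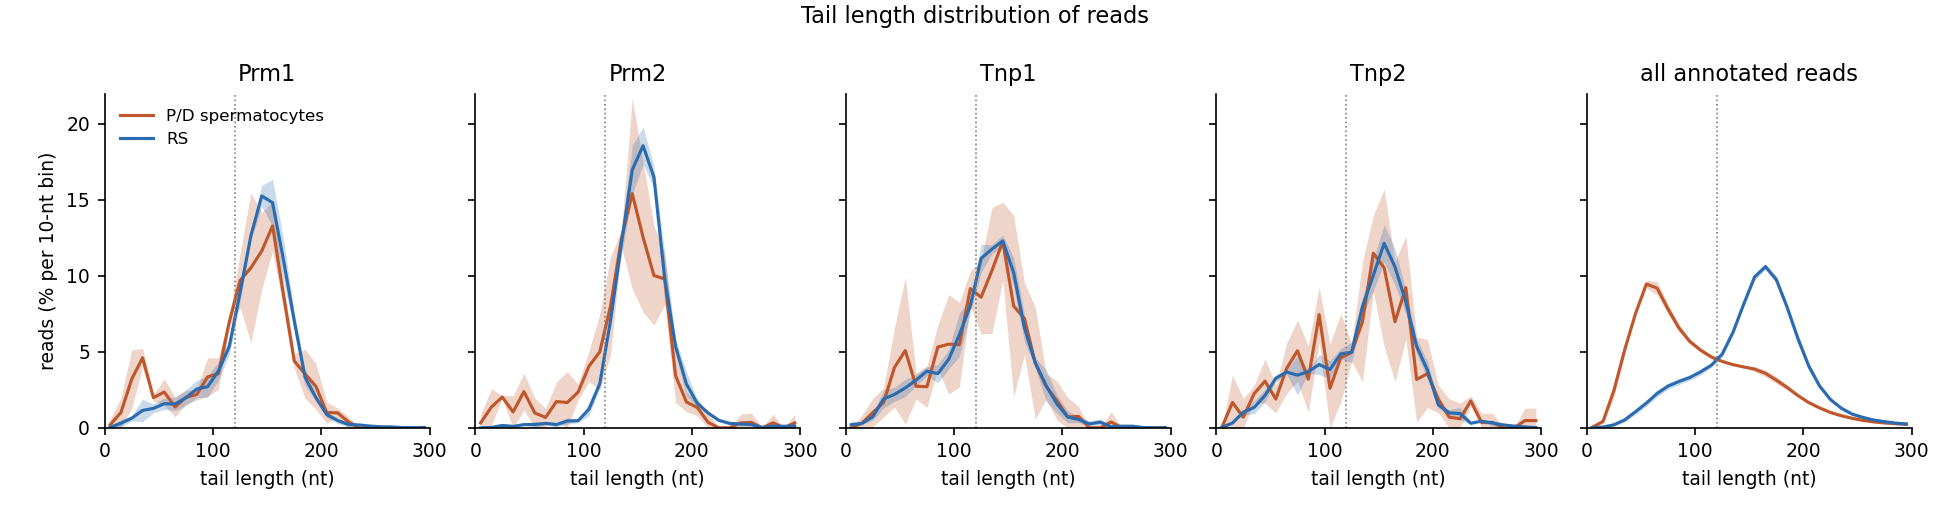
Share of reads (%) per 10-nt bin of tail length, up to 300 nt, for each member and for all annotated reads; lines are the means of 3 samples, shading is the SD, and the dotted line marks 120 nt. The members peak between 140 and 160 nt in both cell types, whereas the peak of all annotated reads lies at 50 to 60 nt in P/D spermatocytes against 160 to 170 nt in RS.

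The share of reads with tails of 120 to 210 nt, the longer of the 2 classes used for these cells, was 69.1%, 63.1% and 64.6% for Prm1 in the P/D pools against 77.0%, 70.7% and 80.1% in RS. For Prm2 it was 78.4%, 72.5% and 73.1% in P/D spermatocytes against 91.1%, 90.1% and 91.5% in RS. Both protamine mRNAs thus had higher shares in every RS sample (exact permutation p = 0.1, the smallest possible). For Tnp1 the shares were 46.5%, 59.3% and 61.96% against 64.6%, 56.8% and 62.6%. For Tnp2 they were 56.8%, 57.1% and 62.5% against 67.8%, 60.8% and 65.5%. The shares of both transition protein mRNAs overlapped between the cell types. The share of all transcripts whose groups did not overlap in this class was not computed. In mean tail length 63.6% of transcripts had every RS sample above every P/D sample.

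All annotated reads moved much further, from 29.6% ± 0.943 (SD, n = 3) of reads in the 120 to 210-nt class in P/D spermatocytes to 67.4% ± 0.996 in RS. The members exceeded all reads in P/D spermatocytes by 36.0 ± 2.86 percentage points for Prm1, 45.1 ± 2.86 for Prm2, 26.4 ± 8.96 for Tnp1 and 29.3 ± 4.12 for Tnp2. In RS Prm1 and Prm2 exceeded all reads by 8.51 ± 3.79 and 23.5 ± 0.295 points. Tnp1 and Tnp2 stood at -6.07 ± 3.26 and -2.73 ± 2.79 points relative to all reads in RS.

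The protamine mRNAs differed between the cell types at the short end of their tails. Tails under 60 nt were carried by 10.3%, 14.0% and 15.8% of Prm1 reads in the P/D pools, against 4.75%, 6.91% and 3.27% in RS. For Prm2 they were carried by 4.90%, 9.80% and 9.68% of reads in P/D spermatocytes, against 0.793%, 1.07% and 0.259% in RS. These groups did not overlap for either protamine (exact permutation p = 0.1, the smallest possible), although the P/D shares rested on 5 to 25 reads a sample. For Tnp1 the shares overlapped, at 4.35 to 19.8% and 6.84 to 9.80%, as they did for Tnp2, at 8.57 to 10.7% and 7.40 to 9.43%. Short tails were rarer in RS over all annotated reads too. Tails of 30 to 120 nt made up 61.2% ± 1.56 (SD, n = 3) of all reads in P/D spermatocytes against 22.4% ± 1.64 in RS. In that class Prm1 went from 28.4% ± 2.01 to 21.9% ± 4.61, and Prm2 from 19.9% ± 1.09 to 6.07% ± 1.17. The share of all transcripts whose groups did not overlap under 60 nt was not computed.

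The 10th percentile of Prm1 tails went from 47.9 ± 9.34 nt (SD, n = 3) to 86.6 ± 12.2 nt, and that of Prm2 from 80.9 ± 17.2 nt to 126 ± 1.74 nt. The 90th percentile of Prm1 was 178 ± 4.55 nt and 175 ± 2.14 nt, and that of Prm2 was 177 ± 4.003 nt and 184 ± 3.09 nt, both overlapping. The 10th percentiles of Tnp1 (62.9 ± 15.9 nt and 67.2 ± 6.01 nt) and of Tnp2 (64.4 ± 4.81 nt and 64.7 ± 2.75 nt) overlapped between the cell types.

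The SD between reads was lower in RS for both protamine mRNAs and for Tnp2. The SD between Prm2 reads was 43.4 ± 5.83 nt in P/D spermatocytes against 28.4 ± 1.06 nt in RS, and that between Prm1 reads was 47.4 ± 1.35 nt and 36.4 ± 2.71 nt. For each of these 3, every RS sample was narrower than every P/D sample. The share of all transcripts whose SD fell in this way was not computed. The SD between reads was 41.9 ± 4.09 nt and 40.8 ± 0.240 nt for Tnp1 and 51.9 ± 2.11 nt and 47.0 ± 0.989 nt for Tnp2. In RS the Tnp2 mRNA thus had the widest spread of the 4 and the Prm2 mRNA the narrowest.

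Within RS the members kept an order. In each RS sample Prm2 had the longest mean tail and Tnp1 the shortest, a difference of 28.4 ± 1.80 nt (SD, n = 3). Prm2 exceeded Tnp2 by 18.5 ± 1.71 nt, and Prm1 minus Prm2 was -16.98 ± 2.46 nt. Prm1 exceeded Tnp1 by 11.4 ± 2.10 nt, and Tnp1 minus Tnp2 was -9.87 ± 0.632 nt. Prm1 and Tnp2, the neighbours in the middle, differed by 1.53 ± 2.66 nt, less than the spread between samples, and not in the same direction in all 3. Over the 6 pairs and 2 cell types the exact sign-flip test gives at least p = 0.25 with 3 samples, and the smallest adjusted p was 0.3.

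In P/D spermatocytes the order was less clear. Prm2 again had the longest mean tail in all 3 samples. Prm2 exceeded Prm1 by 5.94 to 12.2 nt, with Prm1 minus Prm2 at -9.48 ± 3.21 nt, but exceeded Tnp2 by 0.627 to 9.03 nt and Tnp1 by 5.65 to 27.1 nt. Prm1 minus Tnp1 ranged from -6.54 to 16.8 nt. The change from P/D spermatocytes to RS was larger for Prm2 than for Tnp2 by 13.9 nt, and the change of Prm1 minus that of Prm2 was -7.49 nt, with the within-sample differences not overlapping (exact permutation p = 0.1 for each, the smallest possible). With medians in place of means these were 6.69 and -3.86 nt, and the groups overlapped (exact permutation p = 0.2 for each). The change of Prm1 was larger than that of Tnp2 by 6.39 nt (exact permutation p = 0.1), or 2.83 nt with medians (exact permutation p = 0.3). The changes of Tnp1 and Tnp2 differed by 0.36 nt (exact permutation p = 0.8).

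Other mRNAs with tail profiles like those of the members were sought among the 1827 annotated transcripts with 20 or more reads in each sample, by the root mean square difference of the deciles of tail length in both cell types. The profile nearest to Prm2 was that of Svip, at 6.22 nt, with mean tails of 142 nt in P/D spermatocytes against 157 nt in RS, followed by Dbil5 at 10.2 nt and Tomm20l at 10.7 nt. For Tnp1 the nearest were Tsga8 at 8.11 nt, Tekt4 at 8.83 nt and Hist2h2aa1 at 9.86 nt. For Tnp2 they were Morf4l1 at 7.29 nt, Srp9 at 7.42 nt and Sap18 at 8.75 nt. For Prm1 they were Eif5a at 10.7 nt, Tnp2 at 10.8 nt and Srp9 at 10.8 nt, so that Tnp2 was the only member among the nearest transcripts of another. The distance between Prm1 and Prm2 was 15.7 nt, and that between Prm2 and Tnp1 was 24.9 nt.

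In accumulation the members were each other's nearest neighbours. By the root mean square difference of log2(CPM + 1) over the 6 samples, Prm2 and Tnp1 differed by 0.14, and each was nearest to the other among 6005 transcripts. Prm1 was nearest to Prm2, at 0.81, and Tnp2 to Prm2, at 0.41. The only transcript of another gene among the 3 nearest of any member was that of Actl7b, at 1.14 from Tnp2, with 378 ± 109 CPM (SD, n = 3) in P/D spermatocytes and 1465 ± 132 in RS.

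Genes of histone replacement and spermatid chromatin did not move as a block with the members. Of 19 tested transcripts of this list 11 were higher and 3 lower in RS by edgeR, at a median log2 fold change of 0.46, and 32.6% of all tested transcripts were called higher. H1f7, a linker histone of spermatids, rose the most, by 3.90 (SE 0.26, adjusted p = 1.05e-16 in edgeR), close to the members. It had 6, 9 and 4 reads in the P/D pools against 93, 187 and 114 in RS, so it entered the tests only through its RS reads. H2ax, the histone that marks DNA breaks, fell by 1.92 (SE 0.31, adjusted p = 8.99e-07 in edgeR). The linker histone H1f9 (Hils1) rose by 3.56 (SE 0.20, adjusted p = 3.15e-19). In tail length 5 of 20 transcripts were called longer by limma, beside 54.2% over all transcripts. The median difference of the 20 was 9.12 nt beside 37.4 nt over all, and 0 were called shorter (0 also at an unadjusted p below 0.05 and by the equal-variance test). Brdt, a reader of acetylated histones, had the largest tail difference, 74.2 nt (SE 10.4, adjusted p = 0.00156 in limma), and the H2ax difference was -22.1 nt (SE 14.4, adjusted p = 0.24).

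Among the regulators of spermatid transcription 7 of 14 tested transcripts were higher and 3 lower in RS, beside 32.6% called higher over all. Of 13 in the tail test 7 were longer and 2 shorter, a share close to the 54.2% called longer over all transcripts, with a median difference of 30.4 nt. Crem is the transcription factor through which the protamine and transition protein genes are switched on. The Crem transcript with most reads rose by 0.44 (SE 0.18, adjusted p = 0.0283 in edgeR), with tails longer by 41.9 nt (SE 6.85, adjusted p = 0.00284 in limma). Summed over its 3 transcripts, Crem rose more, from 331, 297 and 231 CPM in the P/D pools to 525, 567 and 501 in RS. Fhl5, its coactivator, rose the most, by 3.31 (SE 0.35, adjusted p = 7.66e-11), with a tail difference of -6.63 nt (SE 6.20, adjusted p = 0.404). Over its 2 transcripts Fhl5 had 6, 11 and 1 reads in the P/D pools against 68, 100 and 94 in RS, through which it entered the tests. Piwil1, the germline Argonaute protein, fell the most, by 3.94 (SE 0.22, adjusted p = 3.15e-19), and its tails were shorter, with a difference of -42.6 nt (SE 7.71, adjusted p = 0.00432 in limma). Rfx2 had the largest tail difference, 66.7 nt (SE 6.67, adjusted p = 0.000569 in limma).

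Among the factors that store or translate spermatid mRNA, 15 of 18 transcripts were called longer and 1 shorter in RS, beside 54.2% called longer over all transcripts, with a median difference of 50.6 nt. Of 17 tested for accumulation 3 were higher and 8 lower, beside 32.6% called higher over all. Ybx1, a Y-box protein, had the largest difference, 67.3 nt (SE 5.23, adjusted p = 0.00049 in limma). The germ-cell Y-box protein Ybx2, which binds protamine mRNA, had tails longer by 51.4 nt (SE 5.41, adjusted p = 0.000638) and fell by 0.45 (log2, SE 0.10, adjusted p = 0.000256 in edgeR). Elavl1, an AU-rich element binding protein, had shorter tails, with a difference of -37.4 nt (SE 10.8, adjusted p = 0.026 in limma), but on 7 to 9 reads in each P/D sample, and the equal-variance test with adjustment called no transcript of the list shorter. Elavl1 also had the largest log2 fold change of the list, 1.04 (SE 0.36, adjusted p = 0.0114). Khdrbs1 fell the most, by 2.77 (SE 0.40, adjusted p = 9.75e-08).

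Other stored spermatid mRNAs resembled the members in accumulation and in the small tail difference. Of 22 tested transcripts, from 10 genes, 20 were higher and 1 was lower in RS, beside 32.6% called higher over all transcripts. The median log2 fold change of the 22 was 3.37. In tail length 4 of 22 were called longer by limma, beside 54.2% over all transcripts, with a median difference of 10.3 nt. In the same test 0 were called shorter (0 also at an unadjusted p below 0.05 and by the equal-variance test). Smcp, of the mitochondrial capsule, rose by 3.28 (SE 0.15, adjusted p = 2.06e-21 in edgeR) and its tails differed by 5.28 nt (SE 5.60, adjusted p = 0.461 in limma). Odf1, of the outer dense fibres, rose by 3.49 (SE 0.16, adjusted p = 6.1e-22) and its tails differed by 3.08 nt (SE 6.38, adjusted p = 0.708). Both had longer tails than the members in each cell type. Smcp lay 53.7 ± 5.06 nt (SD, n = 3) above the median transcript in P/D spermatocytes and 14.3 ± 1.73 nt above it in RS, where all 4 members lay below it, and Odf1 lay 59.2 ± 8.41 nt and 17.6 ± 1.46 nt above it.

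Within that list Cabs1 rose the most, by 3.69 (SE 0.31, adjusted p = 1.56e-13 in edgeR). It had 6, 3 and 7 reads in the P/D pools against 54, 149 and 87 in RS, so it entered the tests only through its RS reads. Ldhc, the germ-cell lactate dehydrogenase, which is already abundant in meiosis, fell by 0.38 (SE 0.08, adjusted p = 2.98e-05) and had the largest tail difference, 54.3 nt (SE 5.18, adjusted p = 0.000529 in limma). Akap3 of the fibrous sheath had the smallest, -0.12 nt (SE 15.9, adjusted p = 0.995). The marker lists of spermatids had similarly small differences. The median tail difference was 5.23 nt over 12 transcripts of the RS markers, 1 of them called longer, beside 54.2% over all transcripts. It was 6.96 nt over 19 transcripts of the elongating spermatid markers, 2 of them called longer. Transcripts of these lists and of the stored mRNA list could also enter the tail test through RS reads alone. The part that few P/D reads had in their low shares called longer was not tested. Of 16 transcripts of the P/D markers 5 were called shorter and 2 longer, with a median tail of 135 nt in P/D spermatocytes against 107 nt in RS, although the median of their differences was 4.75 nt. Most genes of the elongating spermatid list are also in the stored mRNA list, so the likeness of these lists was largely fixed in advance.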

How the data were processed

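Poly(A) tail lengths and read counts came from nanopore direct RNA-seq of 3 P/D spermatocyte and 3 RS samples. As deposited, the count table holds raw counts of reads per transcript, and the per-read table holds the tail length of each read in nt. Per the methods, reads were basecalled with Guppy, demultiplexed with Deeplexicon and aligned to GENCODE transcripts with minimap2 (version 2.20-r1061 per the submitters' processing notes, which also name SAMtools, DESeq2 and mm10). Tails were estimated by the authors with Nanopolish, keeping estimates that passed its quality filter. Counting the reads of the per-read table gave the count table exactly. Reads of 597 repeat contigs (0.811 to 1.06% of reads) were left out. Of 1963589 reads, 4727 were listed on more than 1 contig, 2 of them reads of members.

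Mean tail lengths per transcript and sample were tested with limma (version 3.58.1) over the 6990 transcripts that had 10 or more reads in 2 or more replicates of a cell type, and counts with edgeR (version 4.0.16; TMM, filterByExpr, glmQLFTest) over 6005. p-values were Benjamini-Hochberg adjusted with a threshold of 0.05, and both fits were tested on simulated data. In the simulated data only a small part of the transcripts was changed, by a set amount. They did not hold the broad tail shift seen here, so they do not vouch for the fit relative to the median transcript. SDs are over 3 samples, exact tests are two-sided, and p-values measure only the spread between pools. DESeq2 (version 1.42.0) was an alternative.

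The members, lists and markers were chosen with earlier results of these data known. Genes were named by rule: the members, Prm3, Smcp, Odf1, the 3 nearest transcripts to each member, and the extremes of each list by the transcript with most reads of each gene. Crem, Ybx2 and H1f9 were named for their roles after their values were seen. The lists held 24 genes of histone replacement and spermatid chromatin (18 with reads), 8 regulators of spermatid transcription, 12 storage and translation factors and 10 stored spermatid mRNAs. The fit relative to the median transcript, the shares among the members, the class share beside all reads, the bound of 60 nt and the split by log2 fold change were added after the data were seen. Scripts used Python 3.11.15 and R 4.3.3.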

Additional observations from a re-analysis of the deposited data

How the results depend on the processing

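In accumulation all 4 members were called higher in RS in each of 13 alternative settings, including DESeq2, with log2 fold changes of 3.53 to 4.18. The count of transcripts higher in RS was 1955 in the main fit, 3404 with no filter on low counts and 768 when each sample had to hold 10 counts.

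For tail length the Prm2 call depended on the setting. Its difference was 10.4 nt with medians in place of means (adjusted p = 0.175 in limma) and 0.18 on the log2 scale (adjusted p = 0.0545), and 15.95 to 19.8 nt when 1 sample was left out, so that 0 or 1 of the 4 members was called. Prm1, at 10.2 nt, was called by the equal-variance two-tailed test of the study's methods without adjustment (unadjusted p = 0.0441, a test per transcript over all 6990 that stands beside limma) and in the fit of transcripts holding 50 or more reads in each sample, where 2 members and 705 transcripts were called longer. With Benjamini-Hochberg adjustment the methods' test called 1 member, Prm2. Tnp1 and Tnp2 were called in none of the settings run.

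Relative to the median transcript, all 4 members were called lower with the other filters, weights, medians and the 10 to 300 nt range. Leaving out 1 sample gave -28.5 to -26.3 nt for Prm2, and 665 to 1270 transcripts called lower in place of 1386. With 50 or more reads in each sample 278 were called lower. Taking that set as the reference moved the change of Prm1, Prm2, Tnp1 and Tnp2 to -42.7, -35.2, -48.8 and -49.1 nt, and medians in place of means moved it to -48.9, -45.1, -51.6 and -51.7 nt. With medians the RS differences were -10.8 nt for Prm1 minus Prm2, -1.72 nt for Prm1 minus Tnp2, 22.8 nt for Prm2 minus Tnp1, 9.12 nt for Prm2 minus Tnp2 and -13.7 nt for Tnp1 minus Tnp2. With a class of 120 to 180 nt the Prm2 share rose by 12.8 percentage points in place of 16.2.

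The methods take both cell types from the same 9 mice without saying that same-numbered pools hold the same mice. The deviations of same-numbered samples correlated by -0.0106 to 0.0771 in tail length over 1827 transcripts, and the fits without the block stand as the main ones. With the replicate block the tail difference of Prm2 was 17.7 nt (unadjusted p = 0.0529, adjusted p = 0.0893 in limma), with 0 members called. The relative differences were -34.5, -27.0, -40.6 and -40.9 nt for Prm1, Prm2, Tnp1 and Tnp2, with adjusted p = 0.0527, 0.0644, 0.0534 and 0.0506 and with 354 transcripts and 0 members called (all 4 members had unadjusted p below 0.05). The block changed no call in accumulation.

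The P/D means of members rest on 56 to 179 reads a sample, and those of Prm3 and Prm1-202 on 1 to 11. With 3 samples a group, exact tests of single values cannot go below 0.1.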
